A study of Homo sapiens with 25 samples.

Results

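Jurkat cells, an established human T-cell leukaemia line that grows in suspension, were compared after 3 days in medium without histidine (0%) and after 3 days with histidine at 12.5%. The comparison used 6 of the 25 RNA libraries of the study, 3 at 0% and 3 at 12.5%, chosen by their labels. Libraries of the same line on day 3 at 25% and 50% (3 each) and at 100% (2) place these values on the series of histidine levels, and the remaining libraries are from day 6. The labels name no genetic change and no other agent for these groups, and the concentration behind 100% is not given in the sources used here. Separate cultures are not stated for the replicates, so the p-values reflect only how much these libraries vary, possibly for technical reasons. The comparison sets the complete absence of histidine against the lowest level that was supplied.

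Histidine is an essential amino acid that human cells take up from the medium and that the synthetase HARS1 joins to its transfer RNA. Uncharged transfer RNA activates the kinase GCN2, which phosphorylates the initiation factor eIF2 alpha, lowers general translation and favours translation of the transcription factor ATF4, whose targets include transporters, synthetases and the pseudokinase TRIB3. Jurkat cells carry a T-cell receptor together with RNAs of early thymocytes such as RAG1, and they divide without an antigen signal.

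The values are normalized counts, already scaled per library by the authors, and a gene was tested when it had at least 10 normalized counts in at least 2 of the 25 libraries. The libraries summed to 20880896 to 21378833 normalized counts at 0% and 20758545 to 20860393 at 12.5%. The true depth is unknown, because too few of the low values were whole multiples of 1 read to recover reads, so no counting interval is given. All 10 T-lineage markers were detected, with summed levels of 80143 to 84261 normalized counts at 0% and 66659 to 69410 at 12.5%. Pairs of libraries within a group correlated across genes at r = 0.958 to 0.964 and pairs between the groups at 0.949 to 0.957. The libraries carry the numbers 12 to 14 at 0% and 9 to 11 at 12.5%, so within these 6 libraries the number and the histidine level cannot be told apart. What the number stands for is not known here. Some transcripts did not follow the histidine level. HBA2, a haemoglobin gene chosen after its values were seen, had 1649, 1991 and 149 normalized counts at 0%, against 74.4, 97.7 and 1689 at 12.5%, high in libraries of both levels.

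Of 22994 genes tested, 4818 (21.0%) differed between 0% and 12.5% at an adjusted p under 0.05 (limma on log2(value + 1), Benjamini-Hochberg over all tested genes). At 0%, 1954 genes (8.50%) were higher and 2864 (12.5%) were lower. The called falls were larger than the called rises, with medians of -0.64 and 0.45 on the log2 scale. Of the called genes, 310 (1.35% of those tested) were at least 2-fold higher at 0% and 863 (3.75%) at least 2-fold lower, while the median over all tested genes was 0.02. A fit that also carried the library number modulo 8 as a term called 2723 genes (11.8%), with 896 (3.90%) higher and 1827 (7.95%) lower. No value of this term is shared by the 2 groups, so the adjustment between them rests on the other libraries. A call lost with the term does not show a batch effect. The members of the 39 pathway lists described here are read against 8.50% for rises and 12.5% for falls, and calls that were lost with the library number as a term, or without 1 of the 6 libraries, are marked where the gene is named. Under a filter of at least 50 normalized counts in at least 3 libraries, 2052 of 14328 genes were called higher and 2919 lower. These are larger shares, so 8.50% and 12.5% are low for lists of abundant genes.

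**Figure D1:**
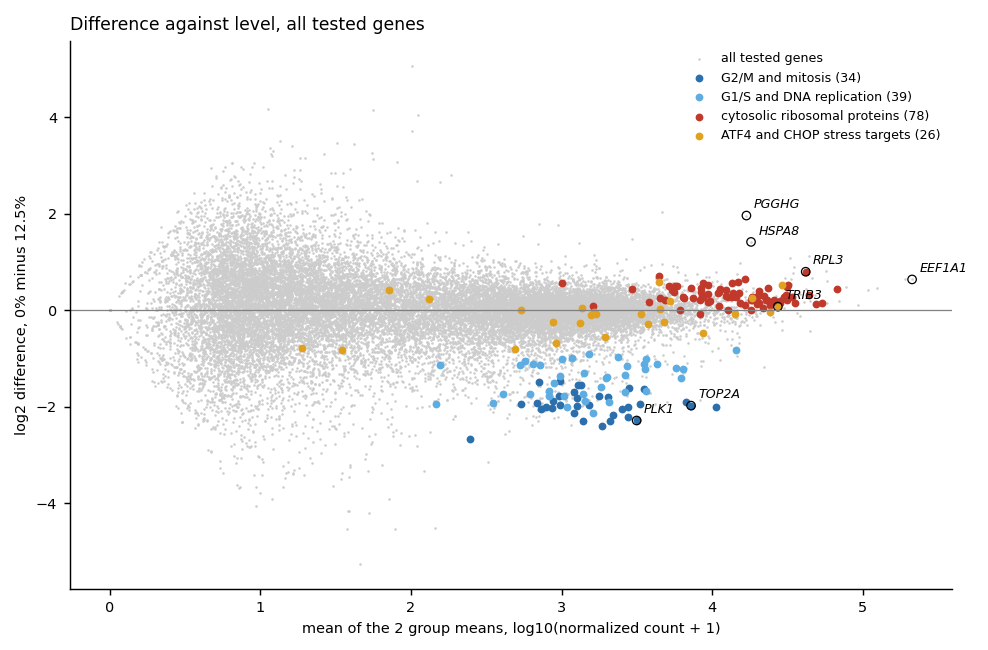
The log2 difference between 0% and 12.5% histidine (vertical axis, log2(value + 1)) is plotted against the mean level (horizontal axis, log10 of normalized counts) for 22994 tested genes in grey, with 4 gene lists coloured and the named genes ringed. The 34 G2/M genes lie between -2.66 and -1.46, and 76 of the 78 ribosomal protein genes lie above 0.

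The RNAs of cell division were lower together at 0%. All 34 tested genes of the G2/M and mitosis list were called lower, with a median log2 difference of -1.96 and a range of -2.66 to -1.46, against 12.5% of all tested genes called lower. In each of the 34 the 3 libraries at 0% lay below the 3 at 12.5%, an order seen in 17.6% of all tested genes. All 34 were also called lower with the library number as a term. In bulk RNA, fewer cells in a phase and less RNA per cell cannot be told apart.

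PLK1, the kinase that drives entry into and passage through mitosis, had 1217, 1005 and 1012 normalized counts at 0%, against 5140, 5193 and 5348 at 12.5%. TOP2A, which untangles sister chromosomes, had 2771, 3090 and 2962 normalized counts at 0%, against 11506, 11888 and 11259 at 12.5%. MKI67, a protein that coats mitotic chromosomes and marks cycling cells, had 4157, 4526 and 4027 normalized counts at 0%, against 17813, 15758 and 17570 at 12.5%. For these 3 genes every library without histidine was far below every library at 12.5%. The log2 difference was -2.28 for PLK1 (SE 0.07, adjusted p = 5.91e-18), -1.97 for TOP2A (SE 0.05, adjusted p = 2.53e-19) and -2.01 for MKI67 (SE 0.08, adjusted p = 9.32e-16). The spindle assembly factor TPX2 (-1.90, SE 0.05) and the cyclins CCNA2 (-2.30, SE 0.08) and CCNB1 (-2.02, SE 0.12) fell as well. The largest fall of the list was that of CDC25C, the phosphatase that activates CDK1 at the start of mitosis, which had 88.9, 60.03 and 53.5 normalized counts at 0%, against 374, 438 and 455 at 12.5%. FOXM1, a transcription factor of G2/M genes, CDK1, the mitotic kinase, and AURKA, a spindle pole kinase, were chosen after their values were seen. FOXM1 averaged 1361 ± 126 at 0% and 5249 ± 197 at 12.5% (SD, n = 3 each), and CDK1 and AURKA fell, with log2 differences of -2.13 (SE 0.09) and -1.81 (SE 0.08).

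Across the 5 levels of day 3 these genes did not run in one direction. PLK1 averaged 1078 ± 121 at 0%, 5227 ± 108 at 12.5%, 3319 ± 145 at 25%, 2896 ± 66.4 at 50% (SD, n = 3 each) and 2728 ± 241 at 100% (SD, n = 2). It was thus lowest at 0% and highest at 12.5%. Over the 34 genes, the median relative to 12.5% was -1.96 at 0%, -0.49 at 25%, -0.35 at 50% and -0.47 at 100%. The step from 12.5% to 0% was tested against the step from 25% to 12.5%, with the contrast (0% minus 12.5%) minus (12.5% minus 25%), in which both steps share the 12.5% libraries. This difference between the steps was called for 2376 genes (10.3%), 748 higher (3.25%) and 1628 lower (7.08%), a split that became 910 higher and 1096 lower after quantile normalization. With the library number as a term it was called for 756 genes (3.29%), 144 higher (0.626%) and 612 lower (2.66%). All 34 G2/M genes were called lower in it, with a median of -2.45, and for PLK1 it was -2.94 (SE 0.13, adjusted p = 8.47e-15).

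**Figure D2:**
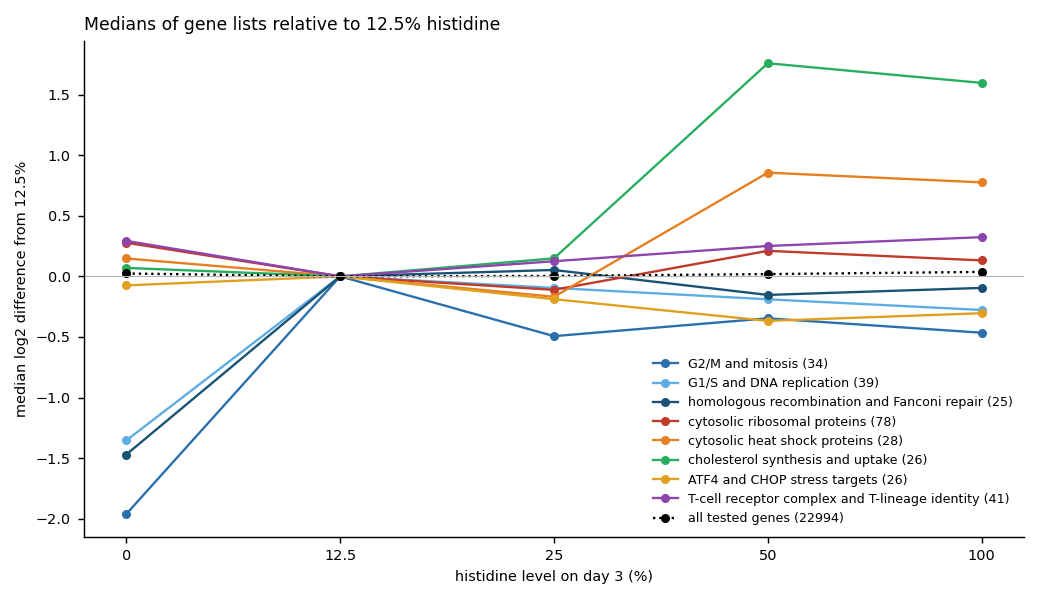
Median log2 difference from 12.5% histidine (vertical axis, log2(value + 1)) over the members of several gene lists and over all tested genes, at the 5 histidine levels of day 3 (horizontal axis, %), with the number of genes in brackets. The 3 cell cycle and repair lists lie between -1.96 and -1.35 at 0%, while the sterol list is at 0.07 at 0%, 1.76 at 50% and 1.597 at 100%.

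The upstream sequence of these genes was searched for words known from cell cycle promoters. Many G2/M promoters carry a cell cycle genes homology region (CHR, TTTGAA, or TTCAAA on the other strand), bound by the DREAM and MuvB complexes, and CCAAT boxes (CCAAT or ATTGG), bound by NF-Y. In the 250 bases before the RefSeq gene start, 15 of the 28 G2/M genes with an entry (53.6%) held a CHR, against 13.6% of all 27305 promoters and 9.21% of the 13597 that belong to tested genes. A CCAAT box stood in 24 of the 28 (85.7%), against 33% of all promoters, and both words stood in 14 (50%), against 4.85%. Taken singly, the words were only slightly more frequent among the falls as a whole. Among all genes called lower a CHR stood in 10.1%, against 9.21% of tested genes, and a CCAAT box in 37%, against 34.3%. Both words together stood in 5.96% of genes called lower, against 3.62% of tested genes and 2.17% of genes called higher. In the sterol list, with a median log2 difference of 0.07, 15 of 19 promoters (78.9%) held a CCAAT box. These shares describe letters, not binding. The members with both words and among the smallest p are shown, the upstream 250 bases 5′ to 3′ from RefSeq, GRCh38.p14, with CHR and CCAAT matches in capitals. TOP2A is at chr17:40417897-40418146 on the minus strand, PLK1 at chr16:23678639-23678888 on the plus strand, and CDC20, the activator of the anaphase ubiquitin ligase (log2 difference -2.04), at chr1:43358731-43358980 on the plus strand.
TOP2A: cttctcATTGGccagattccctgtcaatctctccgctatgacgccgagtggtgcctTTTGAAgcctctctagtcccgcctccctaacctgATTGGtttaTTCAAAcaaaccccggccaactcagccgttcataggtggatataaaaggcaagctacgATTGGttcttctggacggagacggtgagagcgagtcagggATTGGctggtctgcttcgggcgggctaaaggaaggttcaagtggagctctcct
PLK1: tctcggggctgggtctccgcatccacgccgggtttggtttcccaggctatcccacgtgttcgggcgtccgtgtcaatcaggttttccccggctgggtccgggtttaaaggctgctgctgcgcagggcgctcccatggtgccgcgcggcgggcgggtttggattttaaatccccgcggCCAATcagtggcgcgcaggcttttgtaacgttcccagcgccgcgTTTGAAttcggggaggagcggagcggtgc
CDC20: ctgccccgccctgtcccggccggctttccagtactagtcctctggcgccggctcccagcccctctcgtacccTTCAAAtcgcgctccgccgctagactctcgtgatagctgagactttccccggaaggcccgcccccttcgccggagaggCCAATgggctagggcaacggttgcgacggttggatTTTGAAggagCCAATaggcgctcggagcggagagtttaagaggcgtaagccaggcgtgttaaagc
PLK1 held a CCAAT box at position -73 and a CHR at -29, counted to the first base of the match from the start. CDC20 held CCAAT boxes at -100 and -55 with a CHR between them at -65, and another CHR at -178. TOP2A held CCAAT boxes at -244, -160, -93 and -53 and CHR matches at -194 and -151.

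**Figure D3:**
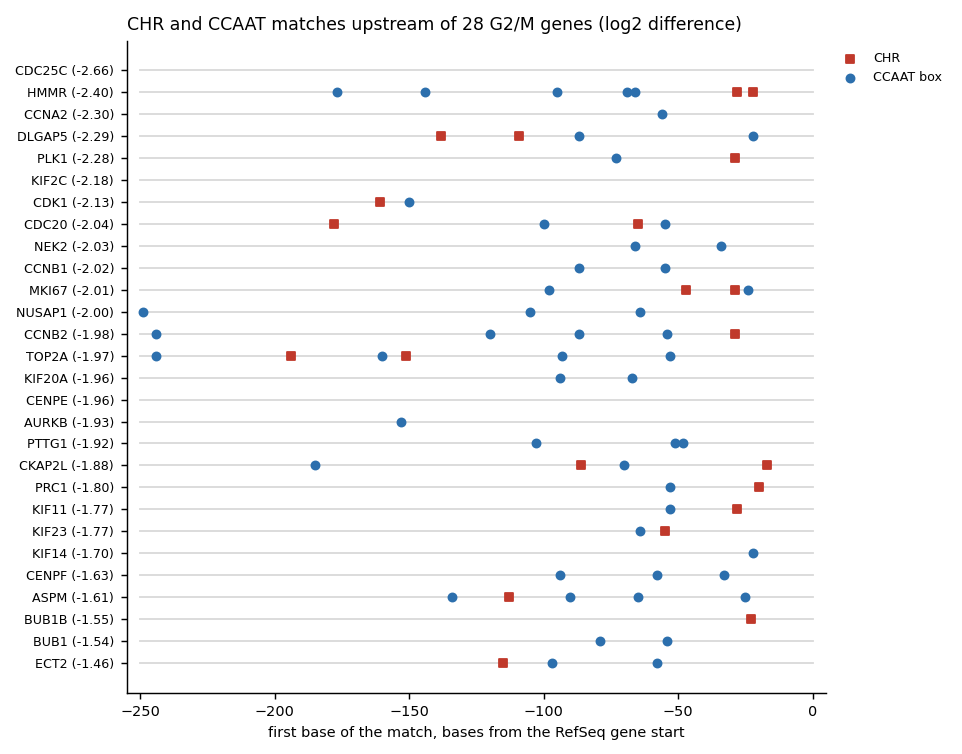
Each row is the upstream stretch of a G2/M gene, ordered by its log2 difference between 0% and 12.5% (in brackets), with CHR and CCAAT matches marked at the distance of their first base from the RefSeq start (horizontal axis, bases). Of 21 CHR matches 13, and of 52 CCAAT matches 39, lie within 100 bases of the start, and 16 of the 28 promoters hold more than 1 CCAAT box.

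Genes of the G1/S transition and of DNA synthesis were lower at 0% as well. Of 39 tested, 38 were called lower and none higher, with a median of -1.35 and a range of -2.12 to -0.83. MCM3, a subunit of the replicative helicase, had 3916, 3785 and 3778 normalized counts at 0%, against 9248, 8743 and 8813 at 12.5%. RRM1, the large subunit of ribonucleotide reductase, had 1205, 1180 and 1394 normalized counts at 0%, against 4041, 4222 and 3840 at 12.5%. E2F2, a transcription factor of S-phase genes, had 856, 873 and 899 normalized counts at 0%, against 3494, 3083 and 3230 at 12.5%. In these 3 genes the groups were far apart, with log2 differences of -1.22 (SE 0.05, adjusted p = 5.27e-16), -1.68 (SE 0.06, adjusted p = 1.11e-16) and -1.90 (SE 0.07, adjusted p = 8.87e-17). Members chosen after their values were seen gave the same direction: CDC6, which loads the helicase, averaged 607 ± 82.7 at 0% and 2621 ± 42.2 at 12.5%, and the replication clamp PCNA 3513 ± 96.3 at 0% and 8053 ± 128 at 12.5% (SD, n = 3 each), while E2F1 and the cyclin CCNE2 fell, with log2 differences of -1.38 (SE 0.08) and -1.93 (SE 0.16). The member that was not called was RRM2, the small subunit of ribonucleotide reductase, with 192, 173 and 1167 normalized counts at 0%, against 2973, 1464 and 567 at 12.5% (adjusted p = 0.0791). Library 3 of each level went against the other two of its group. In the difference between the steps, 38 of the 39 were called lower.

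For these genes the words searched were a pair of forms of the E2F site, TTCCCGC, which reads GCGGGAA on the other strand, and TTGGCGC, which there reads as GCGCCAA and can overlap a CCAAT box. Either form stood in 18 of 35 promoters of the list (51.4%), against 7.95% of all promoters and 11.5% of those of tested genes. Among all genes called lower the share was 17.8%, and among those called higher 10.3%. Members with an E2F word and among the smallest p are shown as above, with the E2F match in capitals, E2F2 from chr1:23531234-23531483 on the minus strand and RRM1 from chr11:4094435-4094684 on the plus strand.
E2F2: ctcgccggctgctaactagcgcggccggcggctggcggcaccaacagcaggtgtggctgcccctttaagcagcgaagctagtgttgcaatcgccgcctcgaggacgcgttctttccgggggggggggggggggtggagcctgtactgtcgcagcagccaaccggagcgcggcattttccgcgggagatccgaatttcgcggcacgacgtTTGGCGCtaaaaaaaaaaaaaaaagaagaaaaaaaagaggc
RRM1: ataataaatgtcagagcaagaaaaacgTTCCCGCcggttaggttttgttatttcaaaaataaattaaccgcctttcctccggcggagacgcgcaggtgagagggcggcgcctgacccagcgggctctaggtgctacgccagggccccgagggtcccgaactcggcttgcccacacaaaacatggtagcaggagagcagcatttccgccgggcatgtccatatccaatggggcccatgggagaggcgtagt
The match begins at -41 in E2F2 and at -223 in RRM1.

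Genes of homologous recombination and of the Fanconi pathway, which repair broken and crosslinked DNA, were called lower in 22 of 25 tested members, with none called higher and a median of -1.47. RAD54L, a motor protein of homologous recombination, had 295, 287 and 325 normalized counts at 0%, against 1123, 1141 and 1158 at 12.5%. The nuclease EXO1 (-2.06, SE 0.09) and FANCI (-1.71, SE 0.07) fell, and BRCA2, chosen after its values were seen, averaged 302 ± 38.3 at 0% and 1166 ± 24.1 at 12.5% (SD, n = 3 each). The 3 members not called were PALB2 (-0.23), XRCC3 (-0.18) and FANCM (-0.39). With the library number as a term 20 of the 25 were called lower, and in the difference between the steps 19.

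Lists of nucleotide synthesis, tubulins and telomere genes had calls in both directions, as had all tested genes (8.50% higher and 12.5% lower). The shares called were 69.6%, 33.3% and 58.3%, against 21.0% of all tested genes. The enzymes TK1 and DTYMK, which make thymidine nucleotides, fell, with log2 differences of -1.86 (SE 0.09) and -1.43 (SE 0.11). Of 23 genes of purine and pyrimidine synthesis 6 were called higher and 10 lower, and 4 higher and 6 lower with the library number as a term. APRT, a purine salvage enzyme, rose by 0.87 (SE 0.08). Of 15 tubulins 2 were called higher and 3 lower: TUBA1B averaged 13589 ± 556 at 0% and 30833 ± 796 at 12.5%, whereas TUBA1A averaged 5230 ± 95.6 at 0% and 4010 ± 50.5 at 12.5% (SD, n = 3 each). Of 12 telomerase and shelterin genes 2 were called higher and 5 lower, and 1 higher and 3 lower with the library number as a term. TERF2, which binds telomeric DNA, was lower (-0.53, SE 0.08). TERT, the catalytic subunit of telomerase, had 5.11, 0 and 1.04 normalized counts at 0%, against 28.1, 36.7 and 11.6 at 12.5%. Its call (adjusted p = 0.0198) was lost with the library number as a term (adjusted p = 0.142) and without single libraries (adjusted p up to 0.0993).

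Replication-dependent histones gave few calls. Of 26 tested none was called higher and 1 lower, H2AC13, which had 0, 0 and 10.7 normalized counts at 0%, against 7.35, 13.95 and 9.57 at 12.5%, with overlapping groups and an adjusted p up to 0.118 without single libraries. The count of the list was 0 to 2 without 1 library, and its median was -0.43. Outside the list's calls, H2AC19 had 184, 179 and 123 normalized counts at 0%, against 108, 6.99 and 1.06 at 12.5%. It forms a near-identical pair with H2AC18, and H2AC18 took 104.7 and 114.4 normalized counts in libraries 2 and 3 at 12.5% and 0 in the other 4. Summed over the pair, the libraries held 183.6, 178.6 and 122.7 at 0%, against 107.5, 111.7 and 115.4 at 12.5%, so the value of H2AC19 alone is uncertain.

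Among inhibitors and other regulators of the cycle, 3 of 24 were called higher and 8 lower. CDKN1B, the inhibitor p27, had 2694, 2845 and 2835 normalized counts at 0%, against 3865, 3879 and 3821 at 12.5%, a log2 difference of -0.47 (SE 0.05, adjusted p = 1.7e-07). The cyclin CCND3 averaged 5326 ± 313 at 0% and 8534 ± 147 at 12.5%, and the pocket protein RBL1 averaged 484 ± 78 at 0% and 1085 ± 159.6 at 12.5% (SD, n = 3 each). CCND2, a cyclin of early G1, was higher, with 779.9, 698 and 833 normalized counts at 0%, against 377, 399 and 490.1 at 12.5% (log2 difference 0.87, SE 0.14, adjusted p = 4.88e-05). CDKN1A, the inhibitor p21, had 135, 157 and 142 normalized counts at 0%, against 256, 216 and 328 at 12.5%, and its call was lost with the library number as a term (adjusted p = 0.461) and without single libraries (adjusted p up to 0.0973). In the list of p53 and damage response genes 3 of 24 were called higher and 4 lower, and none higher and 2 lower with the library number as a term. DDB2, which recognises ultraviolet lesions in DNA, averaged 71.7 ± 6.75 at 0% and 194 ± 20.99 at 12.5% (SD, n = 3 each).

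**Figure D4:**
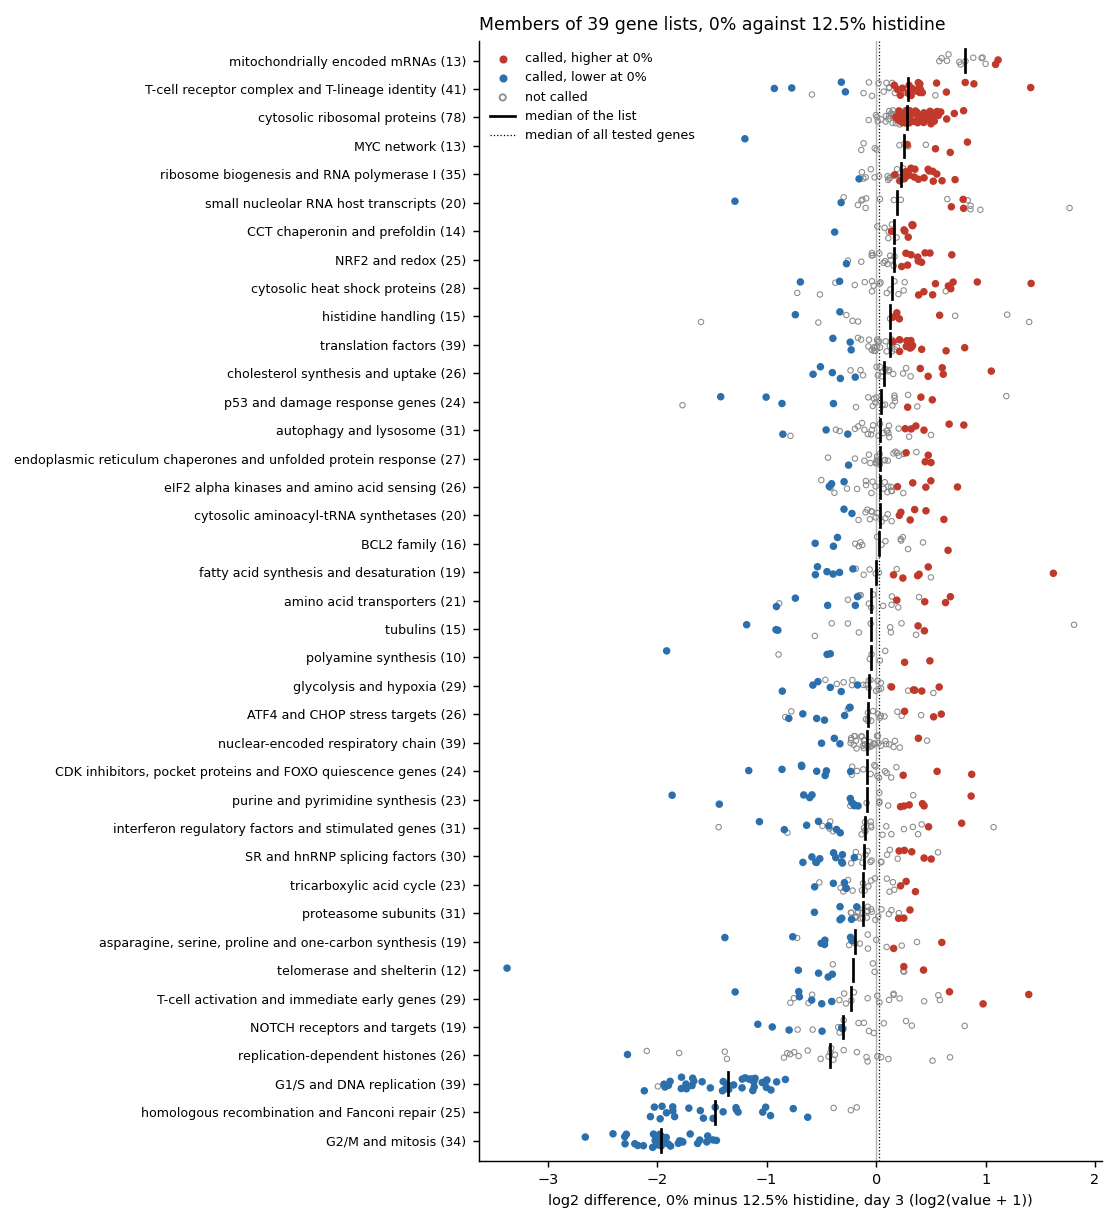
Log2 difference between 0% and 12.5% histidine (horizontal axis, log2(value + 1)) of each tested member of 39 gene lists, ordered by median (bars), with the number of tested members in brackets and filled points for genes called at an adjusted p under 0.05. The 3 lowest lists, with medians of -1.96, -1.47 and -1.35, stand apart from the others, whose medians lie between -0.43 and 0.82.

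Ribosomal protein RNAs were higher at 0%. Of 78 tested, 53 were called higher and none lower, 76 lay above 0 and the median was 0.28, against 0.02 over all tested genes. Under total-sum scaling 51 were higher and none lower, with the library number as a term 49 higher and none lower, and after quantile normalization 41 higher and 1 lower. RPL3, of the large subunit, had 55838, 50695 and 52901 normalized counts at 0%, against 31515, 29506 and 30576 at 12.5%, and its log2 difference of 0.80 (SE 0.06, adjusted p = 1.06e-11) was the largest of the list. RPL23A, also of the large subunit, averaged 5554 ± 149 at 0% and 3389 ± 223 at 12.5%, and RPS4X, of the small subunit, averaged 17804 ± 153 at 0% and 11828 ± 375 at 12.5% (SD, n = 3 each). RPL3 stood at 30936 ± 2233 at 25% and 64138 ± 3180 at 50% (SD, n = 3 each) and 60357 ± 5377 at 100% (SD, n = 2), so its level at 0% was nearer to those at 50% and 100% than to 12.5% and 25%. The list as a whole differed from RPL3. Over the 78 genes the median relative to 12.5% was 0.28 at 0%, -0.11 at 25%, 0.21 at 50% and 0.13 at 100%, so it was highest at 0%. In the difference between the steps 14 of the 78 were called higher and 1 lower.

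The factors that make ribosomes were mostly higher as well. Of 35 genes of ribosome biogenesis and RNA polymerase I, 18 were called higher and 1 lower, with a median of 0.23, and 9 were higher and none lower with the library number as a term. GNL3, the nucleolar protein nucleostemin, had 3134, 3031 and 3249 normalized counts at 0%, against 2228, 2022 and 2311 at 12.5% (log2 difference 0.52, SE 0.07, adjusted p = 5.77e-06). NOLC1 and RRP12, which act in the nucleolus, rose by 0.44 (SE 0.05) and 0.48 (SE 0.07). The lower member was NOP56 (-0.16), whose call was lost with the library number as a term (adjusted p = 0.157) and without single libraries. MYC, a transcription factor of growth genes, had 3593, 3264 and 3155 normalized counts at 0%, against 2187, 2059 and 2008 at 12.5% (log2 difference 0.68, SE 0.07, adjusted p = 5.23e-08). Its levels at 50% (9848 ± 221, SD, n = 3) and 100% (9679 ± 1181, SD, n = 2) were far above both. The MYC network list gave 4 higher and 1 lower of 13, the lower one MXD3, a partner of MAX that competes with MYC, which averaged 353 ± 43.7 at 0% and 809 ± 67.1 at 12.5% (SD, n = 3 each).

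Among 39 translation factors 12 were called higher and 3 lower. The elongation factor EEF1A1 had 258739, 253532 and 265597 normalized counts at 0%, against 173642, 163273 and 162855 at 12.5%, without overlap. This difference of 0.64 depended on the scaling: after quantile normalization it was 0.09 (adjusted p = 0.823), and for EEF2 a difference of 0.42 became -0.14. Quantile normalization gives genes of equal rank the same value in every library. For the most abundant genes it can therefore shrink or reverse a difference, and it cannot show whether that difference is real. Which scaling is closer to the true levels was not tested. The 50 most abundant genes held 13.3% to 14.3% of the total at 0% and 10.5% to 11.2% at 12.5%. EIF4H and EIF1, which act in initiation, fell, with log2 differences of -0.24 (SE 0.05) and -0.23 (SE 0.05).

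Among targets of ATF4 and CHOP, the factors of the amino acid response, 3 of 26 were called higher and 7 lower, and the median was -0.07. TRIB3 had 28581, 27747 and 27806 normalized counts at 0%, against 27564, 25784 and 26474 at 12.5%, a log2 difference of 0.08 (SE 0.08, adjusted p = 0.566) that was -0.09 after quantile normalization. It stood at 20929 ± 1296 at 25% and 4024 ± 156 at 50% (SD, n = 3 each) and 4383 ± 318 at 100% (SD, n = 2), so both groups were at the top of its range. DDIT3, which encodes CHOP, averaged 543 ± 19.8 at 0% and 538 ± 35.1 at 12.5%, ASNS, asparagine synthetase, averaged 1638 ± 95.7 at 0% and 1724 ± 44.4 at 12.5%, and SESN2, an inhibitor of mTORC1, averaged 3292 ± 146 at 0% and 3461 ± 131 at 12.5% (SD, n = 3 each). DDIT3, ASNS and SESN2 were not called (adjusted p = 0.955, 0.602 and 0.468, limma), which does not show that the levels were equal. SLC7A11, the cystine carrier, had 1045, 1310 and 1253 normalized counts at 0%, against 1375, 1585 and 1346 at 12.5% (adjusted p = 0.0612).

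Other members of the same list differed, in both directions. ATF5, a factor related to ATF4, had 37130, 32339 and 32976 normalized counts at 0%, against 24134, 22726 and 24218 at 12.5% (log2 difference 0.53, SE 0.05, adjusted p = 1.97e-09), and VEGFA, an endothelial growth factor, rose by 0.60 (SE 0.07). ATF4 itself, chosen after its values were seen, averaged 20126 ± 526 at 0% and 16807 ± 187 at 12.5% (SD, n = 3 each). ATF3, a stress-induced repressor, had 365, 371 and 341 normalized counts at 0%, against 666, 624 and 586 at 12.5% (log2 difference -0.80, SE 0.13, adjusted p = 3.58e-05). JDP2, a repressor that pairs with JUN, fell by 0.67 (SE 0.09). PHGDH, the first enzyme of serine synthesis, and CEBPB, a partner of ATF4, both chosen after their values were seen, fell, with log2 differences of -0.47 (SE 0.06) and -0.54 (SE 0.12). CHAC1, which degrades glutathione, averaged 806 ± 38.4 at 0% and 953 ± 29.1 at 12.5% (SD, n = 3 each), a call lost with the library number as a term (adjusted p = 0.195) and without single libraries. The C/EBP-ATF word TGATGNAA (TTNCATCA on the other strand) stood in 5 of 23 promoters of the list (21.7%), against 3.19% of all promoters.

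Genes that sense and load amino acids were called in both directions, as were all tested genes (8.50% higher and 12.5% lower). The shares called were 30.8% of the kinases and sensors and 40.0% of the synthetases, against 21.0% of all tested genes. Among 26 eIF2 kinases and amino acid sensors 5 were called higher and 3 lower, and none higher and 2 lower with the library number as a term. EIF2S1, the alpha subunit of eIF2, averaged 3421 ± 198 at 0% and 4600 ± 194 at 12.5% (SD, n = 3 each). Of 20 cytosolic synthetases 6 were higher and 2 lower, and 3 higher and 1 lower with the library number as a term. The valine enzyme VARS1 had 6064, 5734 and 5512 normalized counts at 0%, against 3895, 3739 and 3631 at 12.5% (log2 difference 0.62, SE 0.06, adjusted p = 1.54e-08), and the glutamine enzyme QARS1 rose by 0.46 (SE 0.07), while the alanine enzyme AARS1 fell by 0.29 (SE 0.05). HARS1, the histidine enzyme, had 2493, 2227 and 2282 normalized counts at 0%, against 2107, 1877 and 2061 at 12.5%. This is a log2 difference of 0.21 (SE 0.07, adjusted p = 0.0235) that was not called with the library number as a term (adjusted p = 0.105) or without some single libraries (adjusted p up to 0.139).

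Of 15 tested genes of histidine handling, 4 were called higher and 2 lower. With the library number as a term 1 was called higher, which was not among those 4, and 1 lower. SLC38A5, a transporter of histidine and glutamine, had 388, 390.2 and 425 normalized counts at 0%, against 707, 649.6 and 653 at 12.5% (log2 difference -0.74, SE 0.08, adjusted p = 5.06e-08). Its means at 25%, 50% and 100% were 915, 1087 and 1114, each above the level at 12.5%. SLC7A5, the large neutral amino acid transporter that carries histidine, averaged 73658 ± 589 at 0% and 64629 ± 1128 at 12.5% (SD, n = 3 each). That difference of 0.19 was -0.25 after quantile normalization and was not called with the library number as a term (adjusted p = 0.069). A further 3 calls of this list were lost with that term, that of CNDP2 also without single libraries: SLC15A4, a lysosomal histidine transporter chosen after its values were seen, averaged 438 ± 60.5 at 0% and 291 ± 5.71 at 12.5% (adjusted p = 0.258 with the term), SETD3, which methylates a histidine of actin, 2219 ± 69.5 at 0% and 2791 ± 88.9 at 12.5% (adjusted p = 0.0832), and CNDP2, which cleaves histidine-containing dipeptides, 4707 ± 225 at 0% and 4233 ± 198 at 12.5% (adjusted p = 0.137; SD, n = 3 each).

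Among 21 amino acid transporters 4 were called higher and 5 lower. SLC43A3 averaged 1462 ± 75.1 at 0% and 2753 ± 221 at 12.5%, and the glycine transporter SLC6A9 averaged 1347 ± 29.3 at 0% and 842 ± 8.95 at 12.5% (SD, n = 3 each). Of 19 genes for asparagine, serine, proline and folate metabolism 2 were higher and 7 lower. SHMT1 and SHMT2, which pass a carbon from serine to folate, fell, with log2 differences of -0.76 (SE 0.09) and -0.47 (SE 0.06), and PYCR1 of proline synthesis rose by 0.60 (SE 0.08).

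Cytosolic heat shock genes gave 9 higher and 2 lower of 28, with a median of 0.15. HSPA8, the constitutive HSP70, had 26977, 26151 and 25885 normalized counts at 0%, against 10540, 10784 and 8457 at 12.5%, a log2 difference of 1.42 (SE 0.09, adjusted p = 7.38e-12). Its level was 4524 ± 384 at 25% and 18895 ± 962 at 50% (SD, n = 3 each) and 17922 ± 1285 at 100% (SD, n = 2), and its difference between the steps was 0.29 (SE 0.15, adjusted p = 0.265). DNAJA1, a co-chaperone of HSP70, had 7527, 7012 and 6982 normalized counts at 0%, against 4062, 4020 and 3299 at 12.5%. HSP90AB1, the constitutive HSP90, rose by 0.66 (SE 0.05) and HSP90AA1, the inducible one, chosen after its values were seen, by 0.54 (SE 0.06). HSPA1B, an inducible HSP70, had 199, 230.4 and 155 normalized counts at 0%, against 304, 217 and 235 at 12.5% (adjusted p = 0.475). Its means were 23927 at 50% and 19944 at 100%. The inducible co-chaperone DNAJB1 averaged 3186 ± 96.8 at 0% and 2840 ± 157 at 12.5% (SD, n = 3 each, limma adjusted p = 0.175).

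Heat shock elements consist of GAA units in alternating direction and were searched as TTCNNGAA and as GAANNTTC. Each reads the same on both strands, and they can overlap each other. Either stood in 9 of 25 promoters of the list (36%), against 11.7% of all promoters. The upstream 250 bases of HSPA8, the member with the largest difference, lie at chr11:123062137-123062386 on the minus strand and held 4 matches in overlapping pairs, in capitals.
HSPA8: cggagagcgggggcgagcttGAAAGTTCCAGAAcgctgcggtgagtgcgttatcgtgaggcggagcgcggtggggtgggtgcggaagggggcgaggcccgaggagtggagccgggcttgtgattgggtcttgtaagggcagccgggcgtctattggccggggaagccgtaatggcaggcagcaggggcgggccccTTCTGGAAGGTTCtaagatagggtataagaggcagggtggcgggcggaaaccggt
One pair begins at -230 and the other at -55.

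Among endoplasmic reticulum chaperones and genes of the unfolded protein response 4 of 27 were called higher and 1 lower, and 1 higher and none lower with the library number as a term. Without replicate 1 at 0% 3 were higher and none lower, and with only the day 3 libraries in the fit 6 higher and 2 lower. CANX, a chaperone of glycoproteins, averaged 18116 ± 1903 at 0% and 13266 ± 1146 at 12.5% (SD, n = 3 each). The calls of HSPA5, the HSP70 of this compartment, and SDF2L1 were lost with that term (adjusted p = 0.182 and 0.0794). Of 14 subunits of the CCT chaperonin and prefoldin, which fold tubulin and actin, 7 were higher and 1 lower, with CCT6A up by 0.34 (SE 0.05) and VBP1 lower (-0.38, SE 0.06).

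Genes of sterol synthesis and uptake gave 5 higher and 5 lower of 26, with a median of 0.07, whereas the median relative to 12.5% was 1.76 at 50% and 1.597 at 100%. HMGCS1, which makes the precursor of mevalonate, had 1181, 1217 and 1192 normalized counts at 0%, against 1167, 1189 and 1195 at 12.5% (adjusted p = 0.915), with means of 11344 at 50% and 10945 at 100%. SQLE, squalene epoxidase, chosen after its values were seen, averaged 1030 ± 101 at 0% and 955 ± 97.4 at 12.5% (SD, n = 3 each) and was not called. DHCR7, which makes cholesterol in the last step of its pathway, had 3565, 3735 and 3554 normalized counts at 0%, against 1744, 1904 and 1599 at 12.5% (log2 difference 1.05, SE 0.07, adjusted p = 3.24e-12), so that the groups did not overlap. LSS, which closes the sterol rings, and INSIG1, which retains the sterol sensor, rose by 0.61 (SE 0.07) and 0.48 (SE 0.07). Of 19 fatty acid genes 6 were higher and 6 lower, and none higher and 4 lower with the library number as a term. Without replicate 2 at 0%, or without replicate 3 at 12.5%, 3 were higher and 4 lower, and with only the 6 compared libraries in the fit 4 were higher and 2 lower. The desaturases FADS1 and FADS2 fell, with log2 differences of -0.39 (SE 0.06) and -0.56 (SE 0.07), and their means at 25% were 3407 and 4082.

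**Figure D5:**
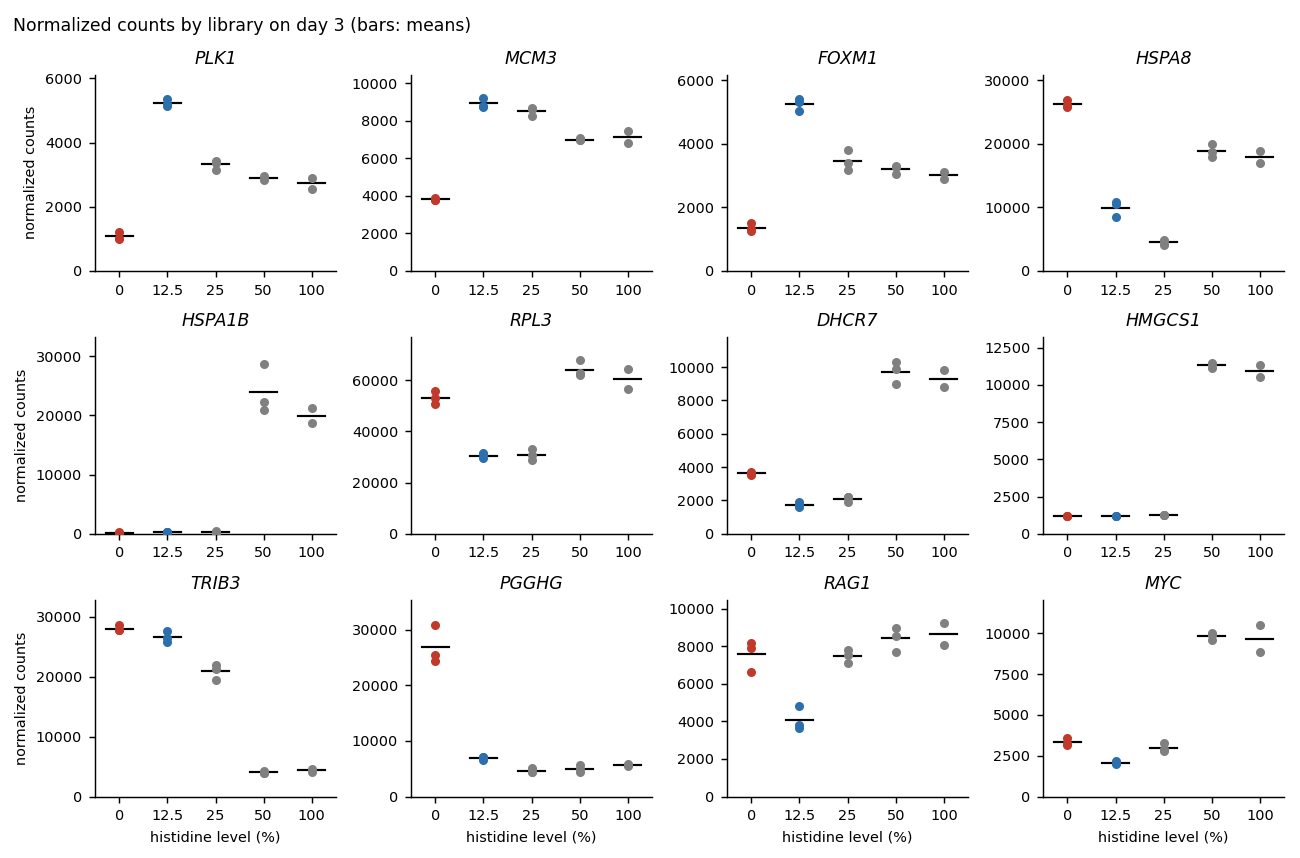
Normalized counts (vertical axes) of 12 genes in each library of day 3 at 5 histidine levels (horizontal axes, %), with group means as bars, and with 0% and 12.5% coloured. PLK1 is lowest at 0% and highest at 12.5%, HSPA8 and RPL3 are higher at 0% than at 12.5%, and TRIB3 averages 28045 at 0% and 26607 at 12.5%.

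RNAs that mark the T lineage were mostly higher at 0% than at 12.5%. Of 41 tested 23 were called higher and 4 lower, with a median of 0.29, and 15 were higher and 2 lower with the library number as a term. The median relative to 12.5% was also 0.125 at 25%, 0.251 at 50% and 0.324 at 100%, so 12.5% was the lowest level and 100% the highest. CD3E, which encodes the epsilon chain of CD3, had 30628, 28342 and 29535 normalized counts at 0%, against 24929, 23294 and 23622 at 12.5% (log2 difference 0.30, SE 0.04, adjusted p = 2.53e-06). The receptor chain TRBC2 rose by 0.55 (SE 0.06) and BCL11B, a transcription factor of T-cell commitment, by 0.64 (SE 0.06). TCF7, another such factor chosen after its values were seen, averaged 13445 ± 411 at 0% and 10030 ± 147 at 12.5% (SD, n = 3 each). In the difference between the steps 15 of the 41 were called higher and none lower.

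The recombinase genes RAG1 and RAG2, which cut receptor genes during thymocyte development, were both higher at 0%. RAG1 had 6633, 7889 and 8191 normalized counts at 0%, against 3807, 4828 and 3637 at 12.5% (log2 difference 0.89, SE 0.11, adjusted p = 1.56e-06). RAG2 had 334, 385 and 342 normalized counts at 0%, against 198, 237 and 171 at 12.5% (log2 difference 0.81, SE 0.11, adjusted p = 3.03e-06). Their annotated spans overlap on opposite strands, and whether strand was used in quantification is not given in the sources used here. RAG1 stood at 7490 ± 349.9 at 25% and 8414 ± 658 at 50% (SD, n = 3 each) and 8641 ± 829 at 100% (SD, n = 2), so that 12.5% was the lowest of the 5 levels. Its difference between the steps was 1.78 (SE 0.19, adjusted p = 4.9e-07). DNTT, the terminal transferase that adds bases at receptor joints, had 769, 779 and 766 normalized counts at 0%, against 1422, 1470 and 1521 at 12.5%. Its mean was 5255 at 25%, 7681 at 50% and 7591 at 100%, so 0% was the lowest of the 5 levels. RUNX3, a factor of cytotoxic lineage choice, was also lower, averaging 264 ± 23.4 at 0% and 451 ± 22.3 at 12.5% (SD, n = 3 each).

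Activation and immediate early genes gave 3 higher and 6 lower of 29, and 1 higher and 1 lower with the library number as a term. Without replicate 2 at 0% they gave 1 higher and 3 lower, and without replicate 2 at 12.5% 1 higher and 4 lower. IER3 averaged 535 ± 69.8 at 0% and 269.9 ± 17.7 at 12.5%, and CD69, an early activation antigen, averaged 215 ± 24.1 at 0% and 326 ± 62.4 at 12.5% (SD, n = 3 each). The call of CD69 was not held without some single libraries (adjusted p up to 0.064). Of 19 NOTCH receptors and targets none was higher and 6 were lower, and none higher and 2 lower with the library number as a term. The ligand JAG2 had 105, 120.3 and 115 normalized counts at 0%, against 265, 201 and 262 at 12.5%. Interferon genes gave 2 higher and 7 lower of 31, and HERC5, a ligase of the ISG15 modifier, averaged 456 ± 18.1 at 0% and 958 ± 106 at 12.5% (SD, n = 3 each).

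Outside the lists, PGGHG (chr11:289135-296107, GRCh38), an enzyme that removes glucose from hydroxylysine residues of collagen, had 30781, 25530 and 24446 normalized counts at 0%, against 7036, 6576 and 7019 at 12.5%, a log2 difference of 1.96 (SE 0.12, adjusted p = 1.56e-10). At 25%, 50% and 100% its means were 4669, 5000 and 5701, so the 0% libraries stood above all other levels of day 3. Its difference between the steps was 1.40 (SE 0.21, adjusted p = 0.000128). IFITM5 (chr11:298200-299526), a bone-related gene on the opposite strand beyond the end of PGGHG, had 102, 121 and 149.7 normalized counts at 0%, against 45.3, 32.6 and 34.9 at 12.5%. Its call was lost with the library number as a term (adjusted p = 0.0572) and without single libraries (adjusted p up to 0.0835). Other large rises were at lower levels, such as ADAMTS1, a secreted protease, which averaged 197 ± 23.3 at 0% and 56.2 ± 10.8 at 12.5%, and PDE11A, a phosphodiesterase, which averaged 253 ± 22.7 at 0% and 83.9 ± 26.1 at 12.5% (SD, n = 3 each). At higher levels, CALB2, ENC1 and RORB were chosen after their values were seen. The calcium-binding protein CALB2 averaged 1878 ± 107 at 0% and 716 ± 27.1 at 12.5%, the actin-binding protein ENC1 averaged 2249 ± 49.2 at 0% and 1021 ± 49.8 at 12.5%, and the nuclear receptor RORB averaged 2283 ± 181 at 0% and 1111 ± 164 at 12.5% (SD, n = 3 each).

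The largest falls were in genes of division or at low levels. E2F8, a repressor of the cycle, had 132, 108 and 125 normalized counts at 0%, against 739, 703 and 714 at 12.5% (log2 difference -2.56, SE 0.11, adjusted p = 8.41e-16), and HMMR and PSRC1, which act on the spindle, fell, with log2 differences of -2.40 (SE 0.10) and -2.38 (SE 0.11). RDM1, ZNF695, TLCD4, C5, JAZF1 and RHBDL3 had log2 differences of -2.80 to -2.42, with means of 20.3 to 39.04 at 0%. SAT1, which acetylates polyamines for export, fell by 1.91 (SE 0.19), and the polyamine list gave 2 higher and 3 lower of 10. TXNIP, an inhibitor of thioredoxin and of glucose uptake, had 6859, 7482 and 7370 normalized counts at 0%, against 11739, 11572 and 11459 at 12.5%, both far above its means of 872 at 50% and 823 at 100%. The falls of ASAP1 and ATP8B3 were not held with the library number as a term (adjusted p = 0.246 and 0.171), nor were the rises of HYDIN, CCDC39, GLDC and EGR3 (adjusted p = 0.295, 0.21, 0.205 and 0.0943). These 6 calls were also lost without single libraries.

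The 13 mitochondrially encoded mRNAs all lay above 0, with a median of 0.82 and no overlap between the groups in any of them, and 2 were called, MT-ND2 and MT-ND5, subunits of complex I. All libraries at 0% lay above those at 12.5% in 16.3% of all tested genes. The median of the 13 relative to 12.5% was also 0.20 at 25%, 0.46 at 50% and 0.73 at 100%, so 12.5% was the lowest of the 5 levels. MT-ND5 had 48319, 39021 and 46003 normalized counts at 0%, against 16868, 21260 and 25002 at 12.5% (log2 difference 1.09, SE 0.32, adjusted p = 0.0203). With the library number as a term none of the 13 was called (adjusted p = 0.298 for MT-ND5), and neither call was held without single libraries. The number called was 0 to 4 without 1 library and 7 with only the day 3 libraries in the fit. Mitochondrial transcripts made up 3.91% to 4.76% of the total at 0% and 2.23% to 3.32% at 12.5%. Of 39 nuclear-encoded subunits of the respiratory chain 1 was called higher and 3 lower, with UQCRC1 of complex III lower (-0.38, SE 0.06). The count became 1 higher and 6 lower under total-sum scaling and 2 higher and 7 lower with only the day 3 libraries in the fit.

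In most of the remaining metabolic lists calls ran in both directions, as they did over all tested genes, while the calls of NRF2 and redox genes were mostly higher. Of all tested genes 8.50% were called higher and 12.5% lower, or 3.90% and 7.95% with the library number as a term. Glycolysis and hypoxia genes gave 5 higher and 6 lower of 29, and 2 higher and 5 lower both with the library number as a term and without replicate 3 at 12.5%. GAPDH had 39956, 36734 and 38510 normalized counts at 0%, against 53773, 48932 and 51325 at 12.5%, while HK2, which phosphorylates glucose, rose by 0.58 (SE 0.08). The citric acid cycle gave 3 higher and 5 lower of 23, with DLST lower (-0.56, SE 0.09). It gave none higher and 2 lower with the library number as a term, and 1 higher and 4 lower without replicate 1 at 0%. NRF2 and redox genes gave 10 higher and 1 lower of 25, and 8 higher and none lower with the library number as a term. FTL, the ferritin light chain, had 12462, 11539 and 11122 normalized counts at 0%, against 7824, 6852 and 7081 at 12.5%. Autophagy and lysosome genes gave 6 higher and 3 lower of 31, with ULK1, the kinase that starts autophagy, up by 0.67 (SE 0.06). The BCL2 family gave 1 higher and 3 lower of 16, and none higher and 2 lower with the library number as a term, with BCL2 itself lower (-0.56, SE 0.12). Proteasome subunits gave 3 higher and 6 lower of 31, and none higher and 3 lower with the library number as a term. They gave 2 higher and 3 lower without replicate 1 at 0%, without replicate 1 at 12.5% or without replicate 3 at 12.5%.

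RNA processing genes were called in both directions, as were all tested genes (8.50% higher and 12.5% lower). The shares called were 53.3% of the splicing factors and 25.0% of the small nucleolar RNA host transcripts, against 21.0% of all tested genes. SR and hnRNP splicing factors gave 5 higher and 11 lower of 30, and none higher and 18 lower in the difference between the steps. HNRNPD averaged 11698 ± 1086 at 0% and 18556 ± 682 at 12.5%, and HNRNPA1 averaged 27151 ± 1491 at 0% and 20046 ± 1331 at 12.5% (SD, n = 3 each). Host transcripts of small nucleolar RNAs gave 3 higher and 2 lower of 20. SNHG12 had 342, 431 and 423 normalized counts at 0%, against 1012, 892 and 1014 at 12.5%, SNHG3 rose by 0.80 (SE 0.11), and GAS5 averaged 9659 ± 271 at 0% and 9431 ± 423 at 12.5% (SD, n = 3 each), not called.

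Markers of other cell types gave few calls. None of the tested B-cell (5), myeloid (8), erythroid (5) and striated muscle (6) markers was called, the 7 epithelial markers gave 1 lower (MUC1), the 10 fibroblast and matrix markers 1 lower (THY1) and the 12 neuronal markers 2 lower (MAP2 and SNAP25). The calls of MUC1, also lost without single libraries, and THY1 were lost with the library number as a term (adjusted p = 0.223 and 0.0849). Without replicate 1 at 12.5% 1 B-cell marker was called lower, and with only the day 3 libraries in the fit 2 striated muscle markers were called higher. Summed erythroid markers ranged from 419.1 to 4937 normalized counts at 0% and from 197.7 to 3837 at 12.5%, and fibroblast and matrix markers from 3931 to 7075 at 0% and from 2227 to 8121 at 12.5%, so single libraries of both levels were high. Striated muscle markers summed to 74.9 to 176.6 at 0% and 39.9 to 51.3 at 12.5%, without overlap. All 6 tested lay above 0, with a median of 1.26. Their sum reached 51164 in a library outside these 6. The spread used in the test came from all 25 libraries, so the lack of calls does not show equal levels. Myeloid markers summed to at most 332.9 at 0% and 301.0 at 12.5%, and epithelial markers to 262.2 to 310.8 at 0% and 286.5 to 464.2 at 12.5%. Neuronal markers summed to 770.2 to 982.8 at 0% and 727.5 to 835.7 at 12.5%, and B-cell markers to 654.5 to 682.9 at 0% and 657.4 to 661.7 at 12.5%. MPO of the myeloid list, CD22 of the B-cell list and TNNT2 of the muscle list were listed at 0 in all 6 libraries. Their part in the differences described was not tested.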

How the data were processed

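RNA was measured in Jurkat libraries grouped by their labels. Per the labels' protocols, lysates passed QIAshredder columns and RNA was purified with RNeasy Mini kits, and a service provider made strand-specific libraries from 1 µg of total RNA. The authors deposited 1 table of normalized counts, a signal scaled per library. The submitters' processing notes name FastQC 0.11.9, kallisto 0.50.1, DESeq2 1.44.0 and GRCh38; which role each had, the annotation and the use of strand are not stated there. Because 55.6% to 75.4% of low values came out whole (tolerance 0.05 of 1 read, values up to 20 reads), no count model was used and depth is unknown.

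Of 36755 genes, 22994 with at least 10 in at least 2 of 25 libraries were tested on log2(value + 1) with limma 3.58.1 (R 4.3.3, statmod 1.5.0, trend and robust moderation). The fit had 9 group means over the 25 libraries, with Benjamini-Hochberg adjustment and a threshold of 0.05, and was tested on simulated data. An exact permutation test of 3 against 3 libraries cannot go below p = 0.1. Lists were described by counts and medians. Genes were named as the 12 largest non-overlapping rises and falls with a mean of at least 100 in a group, the 3 called members of each list with the smallest p and up to 2 against its direction, a fixed list, and the 6 largest differences between steps each way; some of these genes are not reported here. The members and lists were chosen with earlier results of these data known. Coordinates are from GENCODE 29 and promoters from RefSeq GRCh38.p14. Alternatives were another pseudocount, filter, scaling, set of libraries or moderation, a replicate block, the library number modulo 8 as a term, and leaving out each replicate.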

Additional observations from a re-analysis of the deposited data

How the results depend on the processing

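The count of 4818 genes called between 0% and 12.5% was 2723 with the library number modulo 8 as a term and 4065 to 4228 without 1 replicate, and it was 4130 to 4971 under the other alternatives without a block. The 2376 genes called for the difference between the steps became 756 with the library number and 1674 to 2326 without 1 replicate. After quantile normalization 49.0% of the calls were higher at 0%, against 40.6% in the fit reported.

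Same-numbered replicates did not deviate together (correlations of -0.0066, 0.0049 and -0.0145). The fit with the replicate number as a block held only the libraries of the compared groups. It called 3990 genes, and 2239 for the difference between the steps. Without a block, the fits of those same libraries called 4130 and 2205. Among the lists, the fit with the block called 5 of the fatty acid genes, against 12 in the fit of all 25 libraries. It called 8 against 5 of the endoplasmic reticulum genes, 11 against 4 of the respiratory chain and 0 against 2 of the mitochondrial mRNAs. These 2 fits differ in their libraries as well as in the block, so the changes cannot be assigned to the block.

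Of 226 named genes 210 were called, 153 of them in every alternative. Of 3840 values under alternatives 13 turned direction, 209 fell short of the threshold and 10 passed it. After quantile normalization SLC7A5 was at -0.251, EEF2 at -0.138, EIF4G2 at -0.021, TRIB3 at -0.090, GAS5 at -0.007 and MT-CO1 at -0.085. Under total-sum scaling DDIT3 was at -0.012 and HMGCS1 at -0.010. With the library number HBA2 was at -0.276. Without 1 replicate DDIT3 ranged from -0.021 to 0.067 and GAS5 from -0.002 to 0.06. The cause was not tested. Depth is unknown, so what low counts could have shown cannot be stated.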
